A study of Mus musculus with 7 samples.

Results

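The 10 genes described here encode inducible heat shock proteins and their partners: Hspa1a, Hspa1b, Hspa8, Hsph1, Dnajb1, Bag3, Hsp90aa1, Hspb1, Hspd1 and Hspe1. They were chosen by name, with earlier results of these data known, out of 14889 genes in the deposited count table. All 10 were present and passed the count filter. Of the products, those of 8 genes work mainly in the cytosol and nucleus. Hspd1 and Hspe1 encode the chaperonin and cochaperonin of the mitochondrial matrix, so the name cytosolic does not cover them.

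The RNA came from livers of ApoE-/- mice on the C57BL/6 background, 4 months old, after 3 months of Western diet. Loss of apolipoprotein E slows the clearance of remnant lipoproteins and raises plasma cholesterol, and the genotype and the diet were common to both groups. Intraperitoneal saline was given to 4 mice and PX-478 at 40 mg/kg to 3 mice, on a schedule the labels call bi-weekly. PX-478, the N-oxide of the alkylating drug melphalan, is used as an inhibitor of the hypoxia-inducible factor HIF-1α. The labels number the samples within each group and give nothing on how the animals were housed or in which order the livers were taken, so p-values measure only the spread between these samples.

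When unfolded proteins accumulate, the transcription factor HSF1 is released from chaperones, assembles into trimers and binds heat shock elements, arrays of the 5-base unit nGAAn in alternating orientation, in the promoters of its targets. The HSP70 proteins bind exposed hydrophobic stretches of client proteins in a cycle driven by ATP. J proteins start that cycle, and exchange factors such as HSP110 and BAG proteins end it. HSP90 completes the folding of kinases and steroid receptors, small heat shock proteins hold unfolded clients without ATP, and the mitochondrial chaperonin encloses imported proteins in a chamber. In liver the inducible genes respond to heat, ischaemia and oxidants.

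The promoter windows of the members were searched for the letters of this array, because these elements are the sites that HSF1 binds. A window held the 250 bases before an annotated start (RefSeq, GRCm38.p6), and 8 of the 10 members had a window in the table used. Hspa8 and Hsp90aa1 were not among them. The search took GAANNTTC or TTCNNGAA as 2 units, with longer alternating runs as 3 or 4 units. These letters read the same on both strands in the 2- and 4-unit forms, both strands were searched, and longer runs contain the shorter ones. In the sequences below, written 5′ to 3′ on the strand of the gene, capitals mark the matched letters. Hspe1 and Hspd1 are shown first because they share a single array between starts that face away from each other, at chr1:55088053-55088082:

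Hspe1: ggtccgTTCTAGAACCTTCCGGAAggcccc

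Hspd1: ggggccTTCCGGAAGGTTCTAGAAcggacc

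The array of 4 units ended 72 bases before the Hspe1 start and 127 bases before the nearer Hspd1 start. All 30 bases printed also lie within an annotated untranslated region in GENCODE. Hspb1 is shown because it held 2 separate matches, at chr5:135887762-135887869 on the plus strand. Hspa1b stands for the near-identical Hspa1a, and its stretch at chr17:34959295-34959382 on the minus strand has the same letters as chr17:34972213-34972300 before Hspa1a. Hsph1 held a single match at chr5:149636351-149636380 on the minus strand, ending 26 and 47 bases before its 2 annotated starts, and 26 of the 30 bases printed lie within an annotated untranslated region:

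Hspb1: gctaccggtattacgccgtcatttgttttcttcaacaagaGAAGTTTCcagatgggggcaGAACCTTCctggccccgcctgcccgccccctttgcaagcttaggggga

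Hspa1b: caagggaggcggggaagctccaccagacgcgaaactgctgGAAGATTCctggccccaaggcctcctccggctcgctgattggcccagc

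Hsph1: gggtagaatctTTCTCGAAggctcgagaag

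A match of 2 units was present in 6 of the 8 members with a window, namely Hspa1a, Hspa1b, Hsph1, Hspb1, Hspe1 and Hspd1. The same letters occurred in 14.5% of the 27025 genes with a window and in 12.8% of the 32851 windows. An array of 3 units occurred in 0.514% of genes and 1 of 4 units in 7 genes, or 0.0259%, among them Hspd1 and Hspe1. The letters were not found in the windows of Dnajb1 and Bag3 or in that of the farther Hspd1 start. A match describes the letters only and does not show binding.

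**Figure D1:**
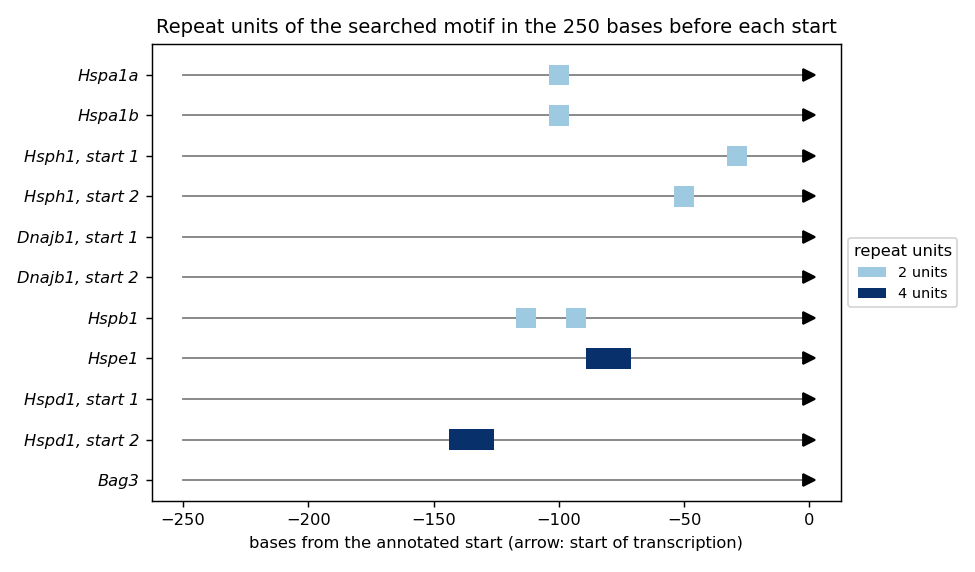
Positions of the searched letters in the 250 bases before each annotated start, for the 8 members with a promoter window. The horizontal axis gives bases from the start (arrow), pale boxes mark 2 units and dark boxes 4 units. The dark boxes of Hspe1 and Hspd1 are the same stretch of DNA, ending 72 and 127 bases before their starts, and Hspb1 has 2 pale boxes.

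Library totals ran from 10285776 to 17257304 reads in genes. Levels are given as CPM, counts per 1000000 reads after scaling by trimmed mean of M-values (TMM), and 3 reads in a library were worth 0.188 to 0.26 CPM. The TMM factor was 1.286 in PX-478 replicate 2 and 0.8883 to 1.052 in the other libraries. That library also had the lowest total and the lowest share of mitochondrially encoded reads, 22.4% against 27.1% to 36.7% in the others. All 8 hepatocyte markers fixed for the tissue check (Alb, Ttr, Apoa1, Apob, Cyp2e1, Cps1, Fgb and Tat) were present, with a summed level of 37358 to 52466 CPM in saline and 33836 to 40447 CPM in PX-478. In bulk liver, fewer cells of a type and less RNA per cell cannot be told apart.

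With all libraries, the heat shock genes differed more between single livers of a group than between the groups. Saline replicate 3 had the highest level of all 7 libraries for 10 of 10 members, and PX-478 replicate 2 was the highest of its group for 10 of 10. Over all 13693 genes tested, saline replicate 3 was the highest of the 4 saline libraries for 27.8% and PX-478 replicate 2 the highest of its group for 34.6%. For 6 of the 10 members saline replicate 3 was at least 2 times the next saline library, which held for 1.65% of all genes tested. Summed over the members, the level was 467.7, 401.5, 1290 and 570.6 CPM in saline replicates 1 to 4 and 371.2, 716.2 and 429.1 CPM in PX-478 replicates 1 to 3. In total reads, TMM factor and share of mitochondrially encoded reads, saline replicate 3 lay within the range of the other libraries. The part of the unusual scaling and mitochondrial share of PX-478 replicate 2 in its high levels was not tested.

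**Figure D2:**
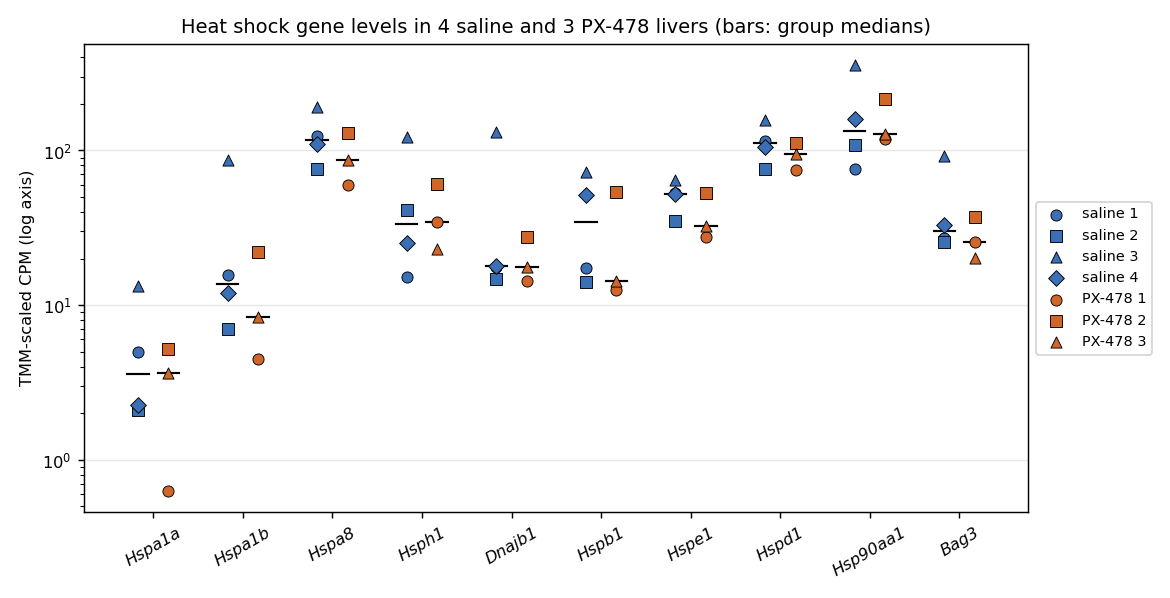
Level of each heat shock gene in each library, in TMM-scaled CPM on a log axis, with a symbol for each of the 7 libraries and a bar at each group median. Saline replicate 3 is the top symbol for all 10 genes, and PX-478 replicate 2 is second for 8 of them.

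Of the HSP70 genes, Hspa1a and Hspa1b encode nearly the same stress-inducible HSP70. Hspa1b (Entrez Gene 15511, chr17:34956429-34959238, mm10, minus strand, a single exon) stood at 15.6, 7.03, 86.6 and 11.9 CPM in saline replicates 1 to 4 and at 4.46, 22.0 and 8.42 CPM in PX-478 replicates 1 to 3. Saline replicate 3, with 1310 reads, was 5.54 times the next saline library, and the other 3 saline libraries lay inside the range of the PX-478 libraries. On the log2 scale PX-478 over saline came to -1.39 (SE 1.08, 95% bounds -4.02 and 1.25), the largest difference among the members, with an adjusted p of 0.844 in edgeR's quasi-likelihood test. It was 0.0044 (SE 0.573) once saline replicate 3 was left out. With PX-478 replicate 2 also left out, a comparison chosen after the values were seen, it was -0.84 (SE 0.387).

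Hspa1a (Entrez Gene 193740, chr17:34969359-34972156, minus strand, a single exon) was the lowest member, at 4.95, 2.08, 13.2 and 2.26 CPM in saline and 0.627, 5.22 and 3.65 CPM in PX-478. It showed the same order at the top, saline replicate 3 and then PX-478 replicate 2, and the lowest value rested on 9 reads. Its log2 fold change was -0.83 (SE 0.791) and 0.024 without saline replicate 3. An annotated gene on the opposite strand, Gm20481, overlaps it, and no source used here states whether reads were counted by strand.

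Reads of the Hspa1 copies cannot be assigned with certainty. Over 250 bases of promoter the copies matched at 98.8% of positions, and their coding sequences at 1915 of 1923 aligned bases, with an identical run of 638 bases. The sequences after the stop codon matched at only 59.4% of aligned positions. Hspa1a took 13.2% to 24.1% of the pair's reads in saline libraries and 12.3% to 30.3% in PX-478 libraries. With the reads of both copies summed, the level was 20.6, 9.11, 99.7 and 14.2 CPM in saline and 5.09, 27.2 and 12.1 CPM in PX-478. The summed pair gave -1.28 (SE 1.04) on the log2 scale, with an adjusted p of 0.85 in edgeR, and 0.01 without saline replicate 3.

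Hspa8 (Entrez Gene 15481, chr9:40801276-40805202, plus strand) encodes the constitutive HSC70, which serves protein folding and clathrin uncoating in unstressed cells. Its level was 125, 76.2, 191 and 110 CPM in saline and 59.6, 130 and 87.0 CPM in PX-478. The spread within saline, 2.51-fold from lowest to highest, was far smaller than the 12.3-fold of Hspa1b, while the library order at the top was the same. Its fitted log2 fold change was -0.45 (SE 0.320, 95% bounds -1.15 and 0.253), and -0.17 without saline replicate 3. Introns of Hspa8 host the small nucleolar RNA genes Snord14c, Snord14d and Snord14e.

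Among the partners of HSP70, Dnajb1 (Entrez Gene 81489, chr8:83608175-83612653, plus strand) encodes the J protein that delivers clients and stimulates ATP hydrolysis. It stood at 17.7, 14.7, 131 and 18.0 CPM in saline and 14.4, 27.5 and 17.7 CPM in PX-478. Saline replicate 3 was 7.25 times the next saline library, the widest such gap among the members, whereas the other 3 saline libraries spanned only 14.7 to 18.0 CPM. The mean was 45.3 ± 57.0 CPM (SD, n = 4) in saline with that library and 16.8 ± 1.82 CPM (SD, n = 3) without it, against 19.9 ± 6.85 CPM (SD, n = 3) in PX-478. Its fitted log2 fold change was -1.19 (SE 0.939) with it and 0.23 (SE 0.255, 95% bounds -0.319 and 0.789) without it.

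Hsph1 (Entrez Gene 15505, chr5:149616843-149636498, minus strand), the HSP110 exchange factor that also helps dissolve aggregates, stood at 15.2, 41.4, 123 and 25.3 CPM in saline and 34.3, 60.5 and 23.1 CPM in PX-478. Below the top pair, saline replicate 2 came next and saline replicate 1 was its lowest library, a place that it also had for Hsp90aa1. Its fitted log2 fold change was -0.39 (SE 0.762) in all libraries and 0.53 (SE 0.442, 95% bounds -0.498 and 1.55) without saline replicate 3, the largest positive value among the members in that comparison.

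Bag3 (Entrez Gene 29810, chr7:128523583-128546981, plus strand) encodes an exchange factor that links HSP70 clients to autophagy. Its level was 27.3, 25.7, 92.4 and 33.2 CPM in saline and 25.6, 37.3 and 20.2 CPM in PX-478. Leaving out saline replicate 3, the saline mean was 28.7 ± 3.96 CPM (SD, n = 3), beside 27.7 ± 8.72 CPM (SD, n = 3) in PX-478. On the log2 scale the difference was -0.69 (SE 0.477) with that library and -0.054 (SE 0.239) without it. An overlapping entry on the same strand, 2610306O10Rik, is annotated in GENCODE.

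Hsp90aa1 (Entrez Gene 15519, chr12:110691036-110696395, minus strand) encodes the inducible form of cytosolic HSP90. It stood at 76.0, 109, 356 and 160 CPM in saline and 118, 215 and 128 CPM in PX-478. Leaving saline replicate 3 aside, all 3 PX-478 libraries lay above saline replicates 1 and 2, but saline replicate 4 lay within their range. For all libraries the log2 fold change was -0.19 (SE 0.509), the smallest in size among the members, and 0.42 (SE 0.304, 95% bounds -0.252 and 1.08) without saline replicate 3. The sign for all 7 libraries also depended on the method, being 0.046 with library size as the only scaling and 0.0037 in limma-voom.

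Hspb1 (Entrez Gene 15507, chr5:135887919-135889563, plus strand) encodes the small heat shock protein HSP27 in human nomenclature and HSP25 in mouse, which holds unfolded clients and protects actin. Its level was 17.3, 14, 72.8 and 51.5 CPM in saline and 12.6, 53.6 and 14.4 CPM in PX-478. Here 3 libraries were high rather than 1: PX-478 replicate 2 was 3.73 times the next library of its group, and saline replicate 4 also lay well above saline replicates 1 and 2. For Hspb1 the log2 fold change was -0.54 (SE 0.793) and, without saline replicate 3, -0.047 (SE 0.816, 95% bounds -2.13 and 2.04), the widest interval of that comparison.

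The mitochondrial pair varied least. Hspd1 (Entrez Gene 15510, chr1:55077833-55088243, minus strand), which encodes the chaperonin HSP60, stood at 116, 76.2, 158 and 106 CPM in saline and 74.3, 112 and 94.7 CPM in PX-478. Hspe1 (Entrez Gene 15528, chr1:55088148-55091317, plus strand), which encodes its cochaperonin HSP10, stood at 53.1, 35.0, 64.6 and 52.2 CPM in saline and 27.7, 52.9 and 32.5 CPM in PX-478. Saline replicate 3 exceeded the next saline library by only 1.37 times for Hspd1 and 1.22 times for Hspe1. These genes share the array printed above, and the ratio of Hspd1 to Hspe1 reads stayed between 2.03 and 2.91 over the 7 libraries. Fitted log2 fold changes were -0.28 (SE 0.245) for Hspd1 and -0.44 (SE 0.259) for Hspe1, and without saline replicate 3 they were -0.086 and -0.31. Their 5′ ends overlap on opposite strands, and 5 Hspd1 and 6 Hspe1 pseudogenes are named in the annotation, so some of their reads cannot be assigned with certainty.

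Set against exon length, the saline means ranked Hsp90aa1 at 44.5 CPM per kilobase, Hspd1 at 43.1, Hspb1 at 37.7, Hspe1 at 34.8, Hspa8 at 29.1, Bag3 at 17.4, Dnajb1 at 14.1, Hspa1b at 10.8, Hsph1 at 7.06 and Hspa1a at 1.89 CPM per kilobase. Exon length here was the union of exons over all transcripts in GENCODE, which can exceed the length of a single mRNA. For Hspa8 it was 4301 bases, longer than the printed span of the gene, so its level and rank here may be too low. The ranges over the 7 libraries of every pair of neighbours in the order above overlapped. Hspa1a ran from 0.211 to 4.45 CPM per kilobase and Hsp90aa1 from 19.3 to 90.6, so the ends of the order did not overlap. The order rested in part on saline replicate 3: over the other 3 saline libraries Hspd1 was first at 37.6 CPM per kilobase, Hspe1 followed at 31.8, and Hsp90aa1 was at 29.3 and Hspb1 at 26.8. Without that library Dnajb1 was at 5.24, Hspa1b at 4.1, Hsph1 at 3.76 and Hspa1a at 1.04 CPM per kilobase, while Hspa8 was at 24.2 and Bag3 at 11.2.

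In the comparison of 4 saline with 3 PX-478 livers, no member passed edgeR's quasi-likelihood test at an adjusted p of 0.05. Of all 13693 genes tested 0.0073% passed, a single gene, Cfd, which encodes complement factor D. No member had an unadjusted p under 0.05 either, where 3.48% of all genes did in each direction. DESeq2 and limma-voom also called 0 members, DESeq2 with 1 member that was given no adjusted p. The fitted change was negative for 10 of 10 members, with a median log2 fold change of -0.49, while 50.3% of all genes tested had a negative value and their median was -0.0035. No member had groups that did not overlap. Of all genes, 4.29% had every PX-478 library below every saline library and 4.3% every one above. In 95% intervals, the members with the least spread could still have fallen by 0.815 (Hspd1) or 1.00 (Hspe1) on the log2 scale.

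When saline replicate 3 was left out, the shift of the members to negative values was no longer present. The fitted change was then positive for 5 members and negative for 5, where 50.3% of all genes were negative, and ran from -0.31 for Hspe1 to 0.53 for Hsph1 with a median of -0.021. No member was called by edgeR among 13470 genes tested, of which 0.00742% were called, and 0 members had an unadjusted p under 0.05, where 3.33% of genes were higher and 3.38% lower at that p. Ranges of the groups still overlapped for 10 of 10 members, where 6.21% of genes had all PX-478 libraries above and 6.45% all below the 3 saline ones. Leaving out PX-478 replicate 2 instead, the median was -0.91 and 10 of 10 members were negative, as were 51.9% of all genes. In that fit 2 members, Hspa8 and Hspe1, had an unadjusted p under 0.05, where 4.25% of all genes did so in the lower direction, and neither passed after adjustment in edgeR (0.0358% of genes called).

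With both of these livers left out, a comparison chosen after the values were seen, the median over the members was -0.41, with 8 negative and 2 positive values, where 51.4% of all genes were negative. Hspe1 then stood at -0.64 (SE 0.233) on the log2 scale, with an adjusted p of 0.452 in edgeR. Hspb1 was at -1.04 (SE 0.615), Hspa1b at -0.84 (SE 0.387) and Hspa8 at -0.50 (SE 0.255). By contrast, Dnajb1 was at -0.072 and Hsp90aa1 at 0.089. No member passed, where 0.108% of all genes did, and at an unadjusted p under 0.05 Hspe1 alone was lower, as were 4.38% of genes. The median thus ran from -0.91 to -0.021 depending on which of these livers entered the fit.

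**Figure D3:**
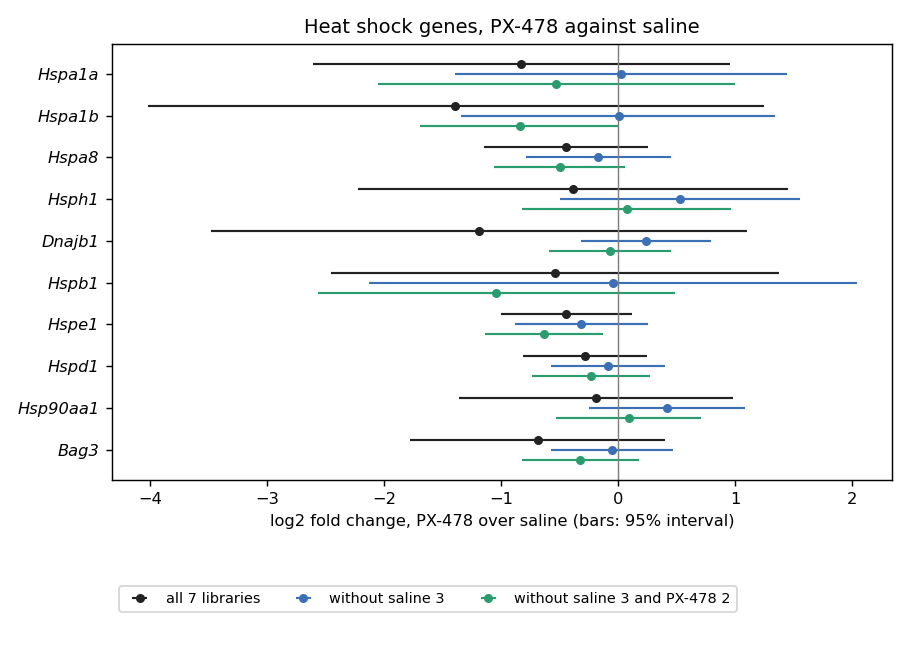
Fitted log2 ratio of PX-478 to saline for each heat shock gene, with 95% intervals, for all 7 libraries, without saline replicate 3, and without saline replicate 3 and PX-478 replicate 2. With all libraries the 10 points lie left of 0, from -1.39 to -0.19. Without saline replicate 3 there are 5 points on each side.

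The spread between replicates of these genes was larger with saline replicate 3 than without it. With all 7 libraries, the tagwise biological coefficient of variation, edgeR's estimate of relative spread beyond counting noise, had a median of 0.56 over the members against 0.278 over all genes tested. It was highest for Hspa1b (0.872) and Dnajb1 (0.774) and lowest for Hspd1 (0.252) and Hspe1 (0.258). In all, 8 of 10 members lay above the median of all genes and 7 among the most variable 25%. Without saline replicate 3 the median was 0.276 over the members and 0.257 over all genes, with 6 members above the median and 4 among the most variable 25%. Dnajb1 was then at 0.236 and Bag3 at 0.228, whereas Hspb1 was at 0.662 and Hspa1a at 0.534.

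Members tended to be high in the same livers. Over the 7 libraries the Pearson correlation of log2 CPM between pairs of members ran from 0.362 for Hsph1 with Hspe1 to 0.981, with all pairs sharing libraries, depth and scaling. Leaving out the 2 libraries farthest from the median of the members' mean profile, saline replicate 3 and PX-478 replicate 1, the range was -0.279 to 0.965, and Hsph1 gave the lowest value, with Hspd1. The map of deviations shows the same order by library. In saline replicate 3, Dnajb1 was 2.88 and Hspa1b 2.85 above the gene's median on the log2 scale. Hspa1a in PX-478 replicate 1 was 2.37 below its median.

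**Figure D4:**
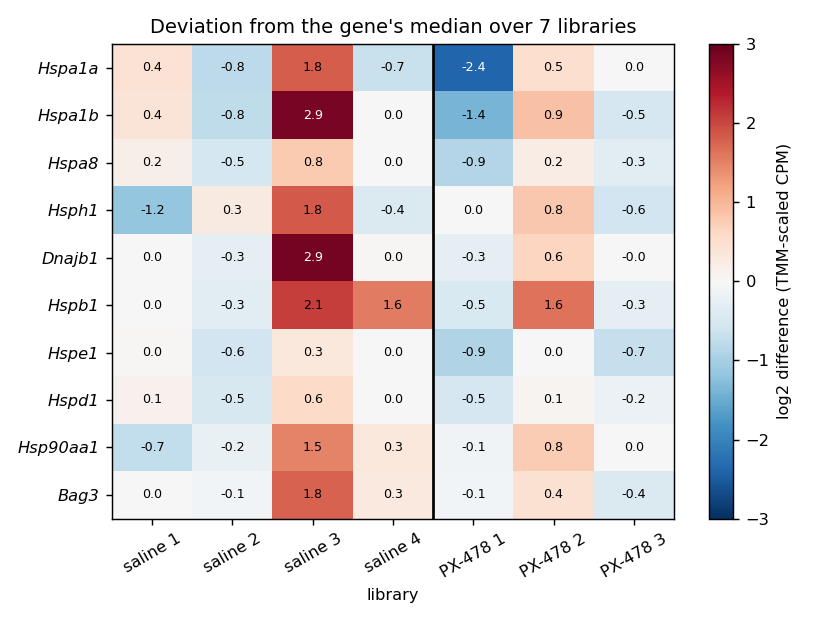
Deviation of each heat shock gene from its median over the 7 libraries, as a log2 difference of TMM-scaled CPM, with genes as rows and libraries as columns. The column of saline replicate 3 is positive throughout, up to 2.88 for Dnajb1 and 2.85 for Hspa1b. The column of PX-478 replicate 2 is the next highest for most genes.

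The genes whose levels followed the members most closely were taken by their correlation with the members' mean standardised log2 CPM, among 11321 genes of sufficient level. They were Mpp4 (r = 0.982 over 7 libraries), Fosl2 (0.981), Psmd8 (0.98), Saraf (0.973), Man1a2 (0.972), Rrp7a (0.971), Stip1 (0.969) and Ahsa1 (0.966). Stip1 encodes HOP, the adaptor that joins HSP70 to HSP90, and Ahsa1 the activator of the HSP90 ATPase. Psmd8 encodes a subunit of the proteasome lid and Fosl2 a member of the AP-1 transcription factors. Leaving out the same libraries, the correlation ran from 0.87 for Saraf to 0.998 for Psmd8, with Stip1 at 0.871 and Ahsa1 at 0.951. Stip1 stood at 50.8, 54.6, 126 and 62.5 CPM in saline and 48.3, 77.3 and 53.2 CPM in PX-478. Psmd8 kept the members' order with a smaller spread, at 32, 29, 46.7 and 34.3 CPM in saline and 24.8, 39.6 and 29.4 CPM in PX-478. None of these genes passed the test.

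Other genes of the heat shock response and of protein folding were read from lists, and in none of them did a gene pass the adjusted threshold in either direction. The lists overlap, so their counts are not separate results. Of 19 tested HSF1 targets outside the members, 16 had a negative and 3 a positive fitted change, with a median of -0.30, and of -0.10 without saline replicate 3. Most of these targets are also counted in other lists here, among them Bag1, Dnaja1, Hspb8, Ier5, and Stip1 and Ahsa1, which were also taken for likeness. Saline replicate 3 was the highest saline library for 14 of these 19 genes and PX-478 replicate 2 the highest of its group for 14. Those with the smallest p were Bag1 at a log2 fold change of -0.40, Sqstm1, the autophagy receptor p62, at -0.43, and Zfand2a, the arsenite-inducible partner of the proteasome, at -0.66. Of 6 tested genes that control HSF1 or belong to its family, 4 had positive and 2 negative fitted changes, with Hsf4 at 0.50, Hsbp1 at -0.31 and Ier5 at 0.35. Hsf1 itself, named outside the rule for genes, was at 31.0 to 63.2 CPM in saline and 44.9 to 49.2 CPM in PX-478.

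HSP90 and its cochaperones had 7 positive and 10 negative fitted changes of 17 tested, with a median log2 fold change of -0.16. Nudcd3 at 0.45, Sugt1 at -0.34 and Cdc37l1 at 0.34 had the smallest p of that list. Other cytosolic J proteins had 7 positive and 7 negative of 14, with Dnaja1 at -0.56, Dnaja4 at -0.59 and Dnajc7 at 0.28. The remaining HSP70 and HSP110 genes had 3 positive and 5 negative of 8, with Hspa12a at 1.49, Hspa4 at -0.43 and Hspa1l at 0.32. Other exchange factors had 4 positive and 2 negative of 6. Among them were Bag5 at -0.29 and Bag2, which had 0 to 0.847 CPM in saline and 0.681 to 1.67 CPM in PX-478. Small heat shock proteins outside the members had 1 positive and 4 negative of 5, among them Hspb8 at -0.52.

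The cytosolic chaperonin CCT, which folds actin and tubulin, had 3 positive and 5 negative of 8, with Cct6a at 0.38, Cct7 at -0.24 and Cct2 at -0.19. Saline replicate 3 was the highest saline library for 7 of those 8 genes. Mitochondrial chaperones and proteases other than Hspd1 and Hspe1 had 2 positive and 10 negative of 12, with a median of -0.13, and of -0.13 also without saline replicate 3. Clpx, the unfoldase of the mitochondrial protease, had the smallest p of that list at -0.58 (SE 0.206) on the log2 scale, not past the threshold in edgeR (adjusted p = 0.602), ahead of Dnajc15 at -0.47 and Dnaja3 at -0.30. Saline replicate 3 was the highest saline library for 3 of these 12 genes, beside 27.8% of all genes tested. Named after their values were seen, these were the matrix chaperones Hspa9 and Trap1 and the protease subunit Clpp.

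A list of 18 genes of the endoplasmic reticulum stress response differed between the high livers. It holds chaperones and folding enzymes, the transcription factors Xbp1, Ddit3 and Atf4, and Herpud1, which acts in protein degradation. In saline replicate 3, 16 of 18 were at the highest saline level, and the median log2 ratio to the other saline libraries was 1.37, against 1.91 for the members. The exceptions, named after their values were seen, were Xbp1 and Atf4. In PX-478 replicate 2, 5 of 18 were the highest of their group and the median ratio was -0.025, against 0.82 for the members. Summed levels were 1725, 2242, 5405 and 2573 CPM in saline and 2884, 2099 and 1613 CPM in PX-478. Of the 18 genes 16 had a negative and 2 a positive fitted change, with a median of -0.41, and of -0.012 without saline replicate 3. Calr, the lectin chaperone calreticulin, stood at -0.83 (SE 0.269) on the log2 scale, not past the threshold in edgeR (adjusted p = 0.563), Pdia3 one of -0.62 and Manf one of -0.82.

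**Figure D5:**
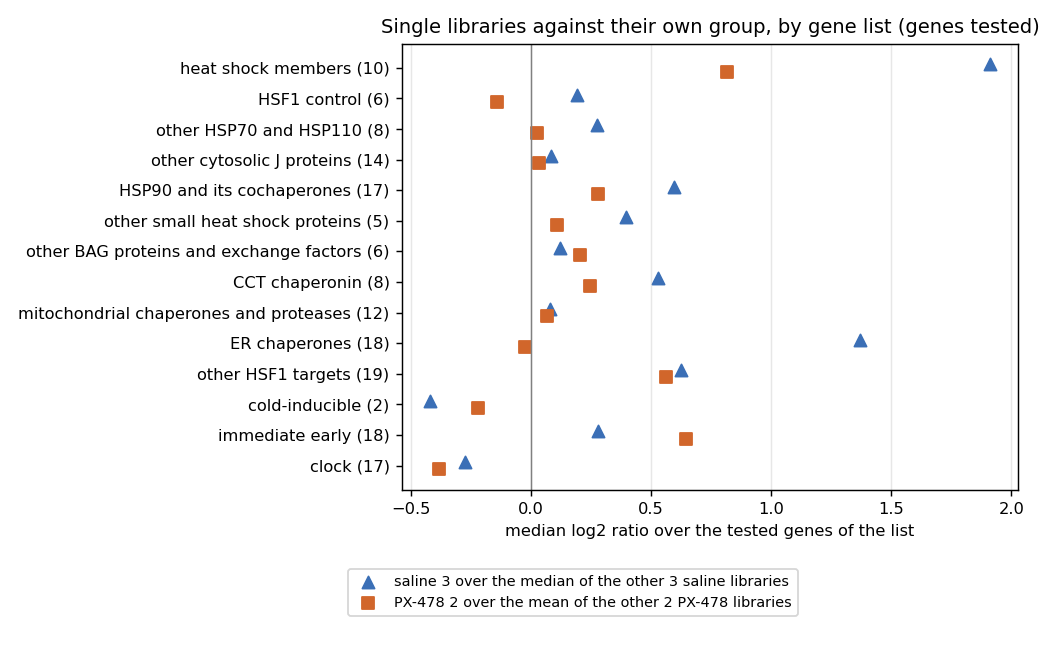
Median over the tested genes of each list of the log2 ratio of 1 library to the others of its group, for saline replicate 3 (triangles) and PX-478 replicate 2 (squares). The heat shock genes are furthest right for both libraries, at 1.91 and 0.82, and the endoplasmic reticulum list, labelled ER chaperones, for saline replicate 3 alone, at 1.37 against -0.025.

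Immediate early, cold-inducible and clock genes were read beside these results. The immediate early genes, which cells switch on within minutes of a stimulus, had a median log2 ratio of 0.28 in saline replicate 3 and 0.64 in PX-478 replicate 2, which was the highest of its group for 10 of 18. The cold-inducible Cirbp and Rbm3 were at 8.20 and 11.1 CPM in saline replicate 3, against 6.77 to 16.7 and 15.4 to 17.3 CPM in the other saline libraries. Clock genes had median ratios of -0.28 and -0.39 in the same 2 libraries, and 11 positive and 6 negative fitted changes of 17 between the groups. Their part in the heat shock levels was not tested.

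Markers of other cell types were read in the same livers. Neutrophil markers, of which Ly6g, Retnlg and Mpo were not analysed here, had median log2 ratios of 0.73 in saline replicate 3 and 1.27 in PX-478 replicate 2 over 3 tested genes, with summed levels of 13.9 to 23.0 CPM in saline and 14.4 to 21.5 CPM in PX-478. Stellate cell markers were the highest of the group in PX-478 replicate 2 for 7 of 8, with a summed level of 524 CPM against 331 to 390 CPM in the other PX-478 libraries and 314 to 367 CPM in saline. In saline replicate 3 the median log2 ratio of these markers was -0.35. Of the adipocyte markers, Adipoq, Plin1, Lep and Retn were not analysed here, which left Fabp4 and Cidec. Their median log2 ratio in PX-478 replicate 2 was 1.61. That library was 1.56 times the mean of the other PX-478 libraries for Fabp4 and 6.2 times for Cidec. Cidec was at 14 CPM against 2.30 and 2.22 CPM in the other PX-478 libraries. In saline replicate 3 the median ratio of Fabp4 and Cidec was -0.49, with Cidec at 1.85 CPM, the lowest saline value. The summed level of Fabp4 and Cidec was 14.7 to 21.6 CPM in saline and 9.20 to 26.4 CPM in PX-478. Kupffer cell markers, with 8 of 8 fitted changes negative and none called, summed to 243 to 519 CPM in saline and 247 to 360 CPM in PX-478. The part of these cell types in the heat shock levels was not tested.

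In the authors' deposited table the PX-478 to saline difference on the log2 scale was likewise negative for all 10 members, from -1.39 for Hspa1b to -0.19 for Hsp90aa1. The unadjusted p in the authors' deposited table was 0.0488 for Hspa1b and 0.0306 for Hspe1, and between 0.0533 and 0.593 for the other members. For these genes the unadjusted p in the edgeR test with 1 value per liver was 0.245 and 0.11. How the authors entered the 2 count columns of each sample into their test is not stated in the sources used here.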

How the data were processed

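Liver RNA of 4 saline and 3 PX-478 mice, grouped by sample title, was read from the table that the authors deposited, which holds raw counts of reads for each gene with its Entrez ID. The submitters' processing notes name featureCounts, edgeR and mm10, with no versions. An aligner and any use of strand in counting were not given in the sources used here. Per the file headers, the authors' log2 fold change of the groups and its p-value, not adjusted, stand beside the counts. A further 7 per-sample columns were not used. All 14889 genes exceeded 0.5 CPM in 2 or more columns, so genes of lower level are not analysed here, and 212 entries lack a symbol.

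The 2 count columns of a sample gave a chi-square per gene of 0.291 to 0.765, against 49.1 to 145 for libraries of the same group. As they differed by less than sampling noise, they were averaged, rounded and counted as 1 sample. Genes were filtered with filterByExpr, scaled by TMM and tested with edgeR 4.0.16 (R 4.3.3), a robust quasi-likelihood F test without covariates, with Benjamini-Hochberg adjustment across the tested genes and calls at 0.05. The SE of a fold change was its size on the log2 scale divided by the root of F. Correlations use log2 CPM with a prior count of 2, and ratios to a group add 0.1 CPM. Intervals cover the spread between samples, and the value of 3 reads covers counting error only. Alternatives were other scalings, filters and tools (DESeq2 1.42.0, limma 3.58.1), a replicate block, each column alone, and leaving out libraries.

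The members, lists and tests were chosen with earlier results of these data known. Genes named are the members, the 3 genes of smallest unadjusted p per list, the 8 most like the members' mean profile, and those past the threshold, and not every gene so taken is described. Gene positions come from RefSeq on mm10, and strands, exon lengths, overlapping entries and pseudogenes from GENCODE. On simulated counts the test recovered 27% of genes changed 2-fold and 78% of those changed 4-fold between PX-478 and saline, among 13236 genes tested, with 6 unchanged genes called. The changed genes were drawn at random from all genes, whose median biological coefficient of variation was 0.278, against 0.56 for the members. Recovery for genes as variable as the members was not measured. Marker lists other than Kupffer cell and neutrophil (-0.42 and -0.11) had medians of -0.34 (hepatocyte), 0.44 (sinusoidal endothelial), 0.28 (stellate), -0.12 (cholangiocyte), -0.46 (T cell), -1.28 (B cell), -0.12 (adipocyte) and -0.24 (erythroid) on the log2 fold change scale, with no gene called. No skeletal muscle marker was tested.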

Additional observations from a re-analysis of the deposited data

Results flagged for a closer look

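Among 55 genes looked at, 7 had a saline library that stood apart from the other 3 by a gap larger than the 95% limit of Dixon's test, and for all 7 it was saline replicate 3. Chance alone gives about 1 in 20 groups of independent values, and these genes are not independent of each other. The 55 genes include 8 taken for their likeness to the members' profile, in which saline replicate 3 is the extreme, so that choice builds in the distance for Stip1 and Rrp7a. Among the other 47 genes, 5 stood apart, and 3 of these were among the 10 members. The members were chosen with earlier results of these data known, and their comparison was planned with and without saline replicate 3. Their flags therefore cannot be set against the chance rate. With the members and the genes taken for likeness set aside, only Hspa4 and Calr stood apart, and no excess over chance is read from these counts. Hspa1b was at 86.6 CPM in saline replicate 3 against 7.03 to 15.6 CPM in the others. Dnajb1 was at 131 CPM against 14.7 to 18.0 CPM, and Bag3 at 92.4 CPM against 25.7 to 33.2 CPM. Outside the members, the HSP110-family gene Hspa4 was at 113 CPM against 65.3 to 71.6 CPM, and Stip1, one of the genes taken for likeness, at 126 CPM against 50.8 to 62.5 CPM. Calr of the endoplasmic reticulum was at 163 CPM against 80.8 to 92.5 CPM. Rrp7a, a ribosome biogenesis gene taken for its likeness to the members, was at 30.9 CPM against 20.5 to 21.8 CPM.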

How the results depend on the processing

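No member passed the threshold under any alternative. The members' median log2 fold change, -0.49, ran from -0.91 (without PX-478 replicate 2) to -0.021 (without saline replicate 3) when 1 library was left out. Library size as the only scaling moved the median of all genes to 0.145 and that of the members to -0.22, with 9 of 10 lower. Over all genes, 0 higher and 1 lower became 4 higher with library size alone, 46 and 38 with DESeq2, 0 lower with limma-voom, 9 and 6 with saline replicate 3 and PX-478 replicate 2 both left out (added after seeing the data), and 1 higher at an adjusted p of 0.10. Leaving out 1 library gave 0 to 4 higher (4 without saline replicate 4, 4 without PX-478 replicate 2, 2 without PX-478 replicate 3) and 1 to 3 lower (3 without PX-478 replicate 3). Genes of the lists past the threshold, 0, became 5 with DESeq2, and 0 to 2 leaving out 1 library (2 without saline replicate 4). Without saline replicate 3, 1 gene became 4 with library size alone, 65 with DESeq2 and 0 with limma-voom. With the replicate block the counts were 1 higher and 2 lower, the members' median was -0.48, and 86 genes passed without saline replicate 3. Without saline replicate 3, only replicates 1 and 2 hold both groups, so that block fit rests on few livers. Same-numbered samples had correlations of -0.0211, -0.0742 and -0.0017 of their deviations from the group means. No PX-478 library correlated best with the saline library of its own number. All such correlations lay between -0.0785 and 0.173, and the labels do not say whether the numbers pair the livers, so this check cannot decide it. Of single genes, Hsp90aa1 turned to 0.046 with library size alone, 0.0037 with limma-voom, 0.073 with the block, 0.42 without saline replicate 3 and 0.089 with both livers left out. Without saline replicate 3, Hspa1a turned to 0.024, Hspa1b to 0.0044, Hsph1 to 0.53, Dnajb1 to 0.23, Cct2 to 0.065, Mpp4 to 0.042, Fosl2 to 0.047, Rrp7a to 0.017 and Stip1 to 0.091. With both left out, Hsph1 turned to 0.073, Cct2 to 0.16 and Hspb2 to 0.65. Cryab turned to 0.10 and Psmd8 and Rrp7a to 0.011 and 0.051 with library size alone, Cryab to 0.21 without PX-478 replicate 1, and Hspb2 to 0.31 without PX-478 replicate 2. With 1 library left out, the lowest values were -1.39 for Hspa1a, -2.24 for Hspa1b, -0.845 for Hsph1, -1.51 for Dnajb1, -0.523 for Hsp90aa1, -0.775 for Cryab, -0.895 for Mpp4, -0.507 for Fosl2, -0.288 for Rrp7a and -0.535 for Stip1 (all without PX-478 replicate 2), -0.297 for Cct2 (without saline replicate 4) and -1.01 for Hspb2 (without PX-478 replicate 1). Fewer samples enter the fits that leave livers out, and the cause was not tested for the other settings.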
